A study of Mus musculus with 12 samples.

Results

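Gene expression was compared between mouse bone marrow cells carrying 2 introduced mutants, SETBP1 (D868N) and NRAS (G12D), and cells carrying NRAS (G12D) with an empty vector in the place of SETBP1. The comparison holds 6 of the 12 RNA sequencing libraries of the series, 3 with both mutants and 3 with NRAS alone, chosen by their labels and by no measured value. In both groups the marrow was taken from female C57BL/6J mice aged 6 to 10 weeks. It was transduced with retroviral supernatants of 293T17 packaging cells, a human embryonic kidney line, collected at 48 and 72 h. Both groups thus carried the NRAS mutant and a pair of vectors. The other 2 groups, which received 2 empty vectors or SETBP1 (D868N) with an empty vector, are used for context and for a shared estimate of the spread. The labels describe all the cells as murine leukemia cells from bone marrow. They give no vector promoter, no sort and no interval between transduction and RNA extraction, and they do not say whether replicates were separate mice, transductions or cultures. The p-values therefore measure only the spread between these libraries, which may be technical. The series title frames the question as one of MAPK signalling: whether mutant SETBP1 raises the pathway activity that NRAS sets going.

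SETBP1 is a nuclear protein that binds DNA and also binds SET, an inhibitor of the phosphatase PP2A. D868N lies in the short stretch that marks SETBP1 for degradation, and the mutant protein accumulates; mutations of this stretch recur in myeloid neoplasms. NRAS is a small GTPase, and G12D holds it in the active state from which it signals through RAF, MEK and ERK. During granulocyte development, precursors first make the proteins of primary granules, such as myeloperoxidase, and later those of specific granules, such as lactoferrin. Hoxa9 and its partner Meis1 keep myeloid progenitors immature, and Hoxa9 and Hoxa10 are reported targets of SETBP1.

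The 6 libraries held between 7462440 and 8038865 counts each, and 12461 to 12731 genes had a count in a library. Values are given as normalised CPM, a gene's count scaled to a common library total, with that total corrected by TMM, edgeR's trimmed mean of log ratios between libraries. Pearson's r of log2 CPM across genes was 0.984 to 0.991 for pairs of libraries within a group, except for the pairs with SETBP1 replicate 3, at 0.946 and 0.953. That library belongs to a group outside the comparison, but it enters the estimate of spread, so each leading count is also given without it. Among the 6 libraries compared, the first principal component held 42.4% of the variance and separated the groups, and the second held 18.5% and set SETBP1+NRAS replicate 2 apart. The label of bone marrow cells was checked against markers, and granule, monocyte and macrophage transcripts were abundant. The defining lymphoid genes Pax5, Rag1, Cd3e and Cd8a had 0 counts in all 12 libraries, as had the stromal genes Col3a1, Dcn and Pdgfra. The haemoglobin genes Hba-a1 and Hbb-bs were also listed at 0, and so was the ribosomal protein gene Rpl26, so that a 0 in this table may be a failure to count a gene with close copies. In bulk samples like these, fewer cells of a type and less RNA per cell cannot be told apart.

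The introduced genes were checked first. Setbp1 had 0 counts in each of the 3 NRAS libraries and 13, 17 and 11 in the 3 with both, which was at least 4.63-fold higher against a floor of 3 counts per library. Nras stood at 1427, 1423 and 1712 normalised CPM with NRAS and 1537, 1599.9 and 1539 with both, and the groups overlapped (log2 change 0.04, SE 0.08, adjusted p 0.955). Both groups thus held the NRAS transcript at levels that did not separate.

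Across 10993 genes tested, 210 were past the threshold of an adjusted p under 0.05 (1.91% of those tested; edgeR quasi-likelihood test, Benjamini-Hochberg over all genes tested). Of these, 58 rose with both mutants (0.528%), Setbp1 among them, and 152 fell (1.38%). The change was at least 2-fold for 24 of the genes that rose and 69 of those that fell, and at least 4-fold for 15 in all. In each of the 210 the 3 values with both lay outside the 3 values with NRAS, as they did for 25.2% of all genes tested. Together the 210 genes took 37150 to 40170 normalised CPM with NRAS and 26570 to 27660 with both. The median log2 change of all genes was 0.000173.

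The number of genes called depended on which libraries shared the estimate of spread. When only the 6 libraries compared were fitted, 883 genes were called (8.37% of those tested in that fit), 394 higher and 489 lower, and 209 of the 210 were among them. Without SETBP1 replicate 3 the number was 836, and all 210 were among them. Without SETBP1+NRAS replicate 1 it was 93. Calls named below that did not survive the loss of a single library are listed at the end of their paragraph, with the largest adjusted p that resulted; none of the 210 genes changed direction in any of these fits. When 1 library was left out of the fit to the 6, Rnase12 and Ffar2 were the only ones of the 210 named below to lose their calls. Rnase12 lost it without NRAS replicate 3 or SETBP1+NRAS replicate 2 or 3, and Ffar2 without NRAS replicate 3.

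**Figure D1:**
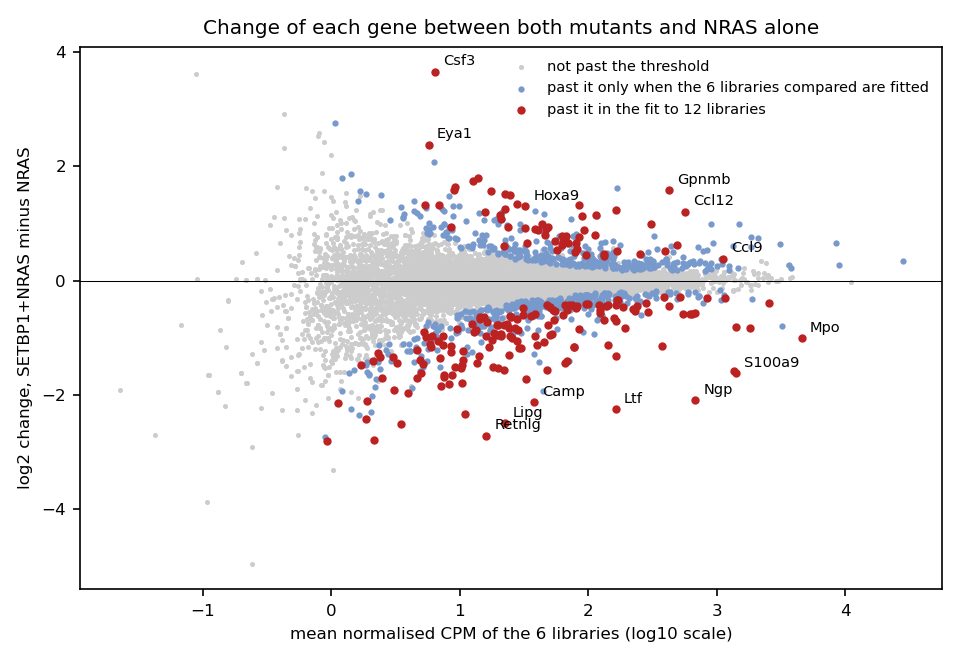
Log2 change between both mutants and NRAS alone (vertical axis) against the mean normalised CPM of the 6 libraries (horizontal axis, log10 scale), one point per gene, without Setbp1. Red points are past the threshold in the fit to 12 libraries, 58 higher (Setbp1 included in the count) and 152 lower; blue points are past it only in the fit to the 6 libraries compared.

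Genes of the Hoxa cluster rose with both mutants; they encode transcription factors that are active in progenitors and shut off as myeloid cells mature. Of 11 listed members 5 passed the filter on low counts, and 3 of these rose (0.528% of all genes tested rose): Hoxa9, Hoxa10 and Hoxa7. Hoxa9 stood at 14.9, 19.6 and 21.3 normalised CPM in the 3 libraries with NRAS and at 43.2, 46.5 and 47.9 in the 3 with both. The lowest library with both was thus above the highest with NRAS. Its log2 change was 1.30 (SE 0.13, adjusted p 0.000147). Hoxa10 went from 3.04, 4.87 and 5.58 to 12.2, 15.2 and 14.7 normalised CPM, also without overlap (log2 change 1.64, SE 0.34, adjusted p 0.0266). Hoxa7, at lower counts, went from 3.83, 3.11 and 2.28 to 7.41, 10.1 and 5.65 (log2 change 1.33, SE 0.30, adjusted p 0.0390). Hoxa5 had a positive log2 change of 1.39 with overlapping groups and was not called. Among the Hoxb to Hoxd genes, 1 of 15, Hoxb4, had enough counts to be tested and was not called (log2 change -0.29, adjusted p 0.902). NRAS alone had left Hoxa9 near its level with empty vectors: the empty libraries held 18.3, 21.0 and 20.1 normalised CPM, and those with SETBP1 alone 53.0, 48.6 and 56.1. The 3 Hoxa genes neighbour each other on 1 chromosome with antisense transcripts between them, and the counting is not stated to use strand, so reads of a gene and of an antisense partner cannot be told apart. The call of Hoxa10 was lost without any 1 of the 6 libraries compared (adjusted p up to 0.121, without NRAS replicate 1), and that of Hoxa7 without any 1 of them other than SETBP1+NRAS replicate 3, or without empty replicate 1 (up to 0.1995, without NRAS replicate 3).

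The stretches just upstream of the annotated starts of these 3 genes are shown because the genes lie side by side and rose together. They come from the RefSeq promoter table of GRCm38.p6, read 5′ to 3′ on the gene's strand, and end 1 base before the start (Hoxa7: 139 bases before it, since exon bases were left out). Capitals mark the only match to the words searched, GAGGAAG, a word bound by PU.1, the transcription factor of myeloid cells encoded by Spi1.
Hoxa9, chr6:52227371-52227620, minus strand: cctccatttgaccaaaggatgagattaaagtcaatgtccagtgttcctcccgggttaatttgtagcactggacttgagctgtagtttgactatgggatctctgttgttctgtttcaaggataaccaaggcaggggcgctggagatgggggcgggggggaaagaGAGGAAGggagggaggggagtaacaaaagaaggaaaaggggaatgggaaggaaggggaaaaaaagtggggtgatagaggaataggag
Hoxa10, start at 52240854, chr6:52240855-52241104, minus strand: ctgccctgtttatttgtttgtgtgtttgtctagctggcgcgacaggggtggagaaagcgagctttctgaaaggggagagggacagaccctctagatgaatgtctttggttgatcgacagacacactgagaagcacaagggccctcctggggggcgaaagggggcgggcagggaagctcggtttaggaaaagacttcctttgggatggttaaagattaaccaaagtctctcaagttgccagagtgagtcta
Hoxa10, start at 52234939, chr6:52234940-52235189, minus strand: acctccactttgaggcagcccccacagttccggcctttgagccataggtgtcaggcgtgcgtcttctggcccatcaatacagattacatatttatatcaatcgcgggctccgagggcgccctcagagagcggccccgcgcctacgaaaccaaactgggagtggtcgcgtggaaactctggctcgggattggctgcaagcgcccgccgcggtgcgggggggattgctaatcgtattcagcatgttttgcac
Hoxa7, chr6:52218712-52218823, minus strand: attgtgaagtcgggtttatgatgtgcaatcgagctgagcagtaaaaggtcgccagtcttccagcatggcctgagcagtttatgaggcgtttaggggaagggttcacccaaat
The word begins 87 bases before the start of Hoxa9. Over the 250 bases upstream and on both strands, GAGGAAG occurred in 11.3% of the 8836 promoters of tested genes that the table holds, in 23.9% of the 46 promoters of genes that rose and in 14.9% of the 121 of genes that fell. The HOX-PBX word TGATTTAT, at 0.328% of tested genes, was in 0 promoters of either set, and the SETBP1 word AAAATAA was in 4.35% and 4.96% of them, against 3.97% of tested genes. A match is a description of letters and not a site of binding.

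Partners of the Hox proteins followed in part. Of 11 members tested among 14 cofactors, Eya1 and Meis1 rose (0.528% of all genes tested rose). Meis1, which binds DNA together with Hoxa9, stood at 22.5, 29.8 and 35.5 normalised CPM with NRAS and 56.9, 62.7 and 55.0 with both, with no overlap (log2 change 0.99, SE 0.18, adjusted p 0.0101). The empty libraries were lower, at 16.2, 15.5 and 12.3, and with SETBP1 alone it was at 19.9, 25.0 and 16.2, so the libraries with both were the highest of the 4 groups. Eya1, a phosphatase and transcriptional co-activator, went from 1.45, 1.62 and 2.41 to 7.13, 12.8 and 8.88 normalised CPM (log2 change 2.38, SE 0.39, adjusted p 0.00607). Pbx3, another Hox partner, was at 3.70, 4.19 and 4.06 with NRAS and 8.67, 5.63 and 7.0 with both; these groups did not overlap either, but it was not called (log2 change 0.83, adjusted p 0.142). The call of Meis1 was lost without NRAS replicate 2 or without SETBP1+NRAS replicate 2 (adjusted p up to 0.0592).

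Among 40 tested transcription factors of the blood lineages, Klf2 rose, and Gata1 and Cebpe fell (0.528% of all genes tested rose and 1.38% fell). Gata1, the master regulator of erythroid, megakaryocytic, mast cell and eosinophil fates, stood at 13.6, 16.6 and 18.6 normalised CPM with NRAS and 5.04, 5.76 and 3.23 with both (log2 change -1.80, SE 0.21, adjusted p 0.000701). Cebpe, the C/EBP factor that drives specific granule genes, went from 51.0, 52.6 and 49.4 to 27.0, 21.8 and 29.7 (log2 change -0.96, SE 0.20, adjusted p 0.0243). Klf2, a zinc-finger factor that restrains activation of monocytes, went from 83.2, 79.1 and 83.2 to 146, 147 and 137 (log2 change 0.81, SE 0.14, adjusted p 0.00797). In all 3 the groups did not overlap. Of the factors that come before Cebpe in granulocyte development, Cebpa and Gfi1 were lower in each library with both than in each with NRAS but were not called, at log2 changes of -0.44 (adjusted p 0.0626) and -0.40 (0.0626). Spi1 overlapped (log2 change -0.09, adjusted p 0.849). Myb and Runx1, reported targets of SETBP1, had log2 changes of -0.27 and -0.30 and were not called (adjusted p 0.359 and 0.465). The call of Cebpe was lost without any 1 of the 6 libraries compared (adjusted p up to 0.1305, without SETBP1+NRAS replicate 2), and that of Klf2 without NRAS replicate 2 (0.0503).

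The list with the most falls was that of genes made late in neutrophil development. Of 24 tested, 13 fell and 0 rose, beside 1.38% of all genes tested that fell. The median log2 change of the 24 was -1.16, and their summed level went from 8638, 8669 and 10310 normalised CPM with NRAS (in order of size) to 3665, 4031 and 4367 with both. Without SETBP1 replicate 3 the number that fell was 18, beside 479 of all 11112 genes tested in that fit. Without SETBP1+NRAS replicate 1 it was 11, beside 71 of all 11154. The members belong to several compartments of the neutrophil.

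Specific granule proteins were among those that fell. Ltf encodes lactoferrin, which binds iron; it stood at 292, 208 and 311 normalised CPM with NRAS and 62.1, 55.4 and 53.5 with both, and the lowest NRAS library was above the highest with both (log2 change -2.25, SE 0.17, adjusted p 3.19e-05). Camp, the antimicrobial peptide cathelicidin, went from 79.3, 54.0 and 49.9 to 14.7, 15.1 and 12.1 (log2 change -2.13, SE 0.19, adjusted p 4.83e-05), and Ngp, a granule protein related to it, from 1355, 933 and 1020.0 to 276, 266 and 233 (log2 change -2.09, SE 0.20, adjusted p 8.63e-05). None of these groups overlapped. Lcn2, the siderophore-binding protein of the same granules, fell less, from 568, 482 and 495 to 222, 208 and 269 normalised CPM (log2 change -1.14, SE 0.12, adjusted p 0.000138).

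The cytosolic alarmins S100a8 and S100a9, which form calprotectin, fell side by side. S100a9 went from 2567, 1959 and 1870.5 normalised CPM to 700.0, 616 and 769 (log2 change -1.62, SE 0.13, adjusted p 3.45e-05). S100a8 went from 2330.4, 2005 and 1761 to 681, 562 and 804 (log2 change -1.57, SE 0.16, adjusted p 0.000147). The other 6 S100 genes tested were not called. Retnlg, a resistin-like secreted protein of neutrophils, had the largest fall of the list, from 33.6, 22.6 and 27.8 to 4.76, 2.69 and 5.38 normalised CPM (log2 change -2.71, SE 0.39). Itgb2l, a neutrophil integrin beta chain, changed by -2.33, Cd177, a surface protein of neutrophils, by -1.55, Fcnb, a ficolin of the lectin complement pathway, by -1.64, Chil3, a chitinase-like protein with close copies, by -0.81, the chemokine receptor Cxcr2 by -1.18 and Wfdc21 by -0.88 on the log2 scale. Each of these 7 had groups without overlap. The call of Cxcr2 was lost without NRAS replicate 2 or 3 or without SETBP1+NRAS replicate 1 or 2 (adjusted p up to 0.0809), and that of Wfdc21 without any 1 NRAS library or without SETBP1+NRAS replicate 1 or 2 (up to 0.155).

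The 3 late neutrophil genes with the smallest p have these upstream stretches in the same RefSeq table (GRCm38.p6, gene strand, exon bases left out, ending 22, 1 and 162 bases before the start), shown because C/EBP factors act on such genes. Capitals mark matches to TTNNGCAA, the core of a C/EBP word, on either strand, so that a match on the opposite strand reads as the reverse complement of the word. No stretch printed here held matches of more than 1 of the words searched.
Ltf, chr9:111019042-111019270, plus strand: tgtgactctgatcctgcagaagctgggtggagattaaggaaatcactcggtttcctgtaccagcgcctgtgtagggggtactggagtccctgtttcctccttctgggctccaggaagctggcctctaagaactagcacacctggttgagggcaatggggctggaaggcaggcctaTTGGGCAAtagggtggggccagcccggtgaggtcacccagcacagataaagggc
S100a9, chr3:90695722-90695971, minus strand: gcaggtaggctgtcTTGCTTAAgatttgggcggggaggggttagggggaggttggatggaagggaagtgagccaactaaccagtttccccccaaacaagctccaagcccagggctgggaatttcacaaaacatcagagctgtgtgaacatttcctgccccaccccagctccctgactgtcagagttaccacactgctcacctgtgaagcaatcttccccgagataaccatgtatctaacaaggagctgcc
Camp, chr9:109849618-109849706, minus strand: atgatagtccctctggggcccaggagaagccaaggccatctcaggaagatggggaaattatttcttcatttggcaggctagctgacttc
The match begins 75 bases before the start of Ltf and 236 bases before that of S100a9. Of the 13 late neutrophil genes that fell, 12 were in the promoter table, and 6 of them held the word within 250 bases upstream: Ltf, S100a9, Ngp, Lcn2, Retnlg and Fcnb. The share was 7.70% of the promoters of all tested genes, 8.70% of those of genes that rose and 10.7% of those of genes that fell. The list was known to be rich in granule genes before the word was searched, so the share describes these promoters and is no independent evidence about a factor.

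**Figure D2:**
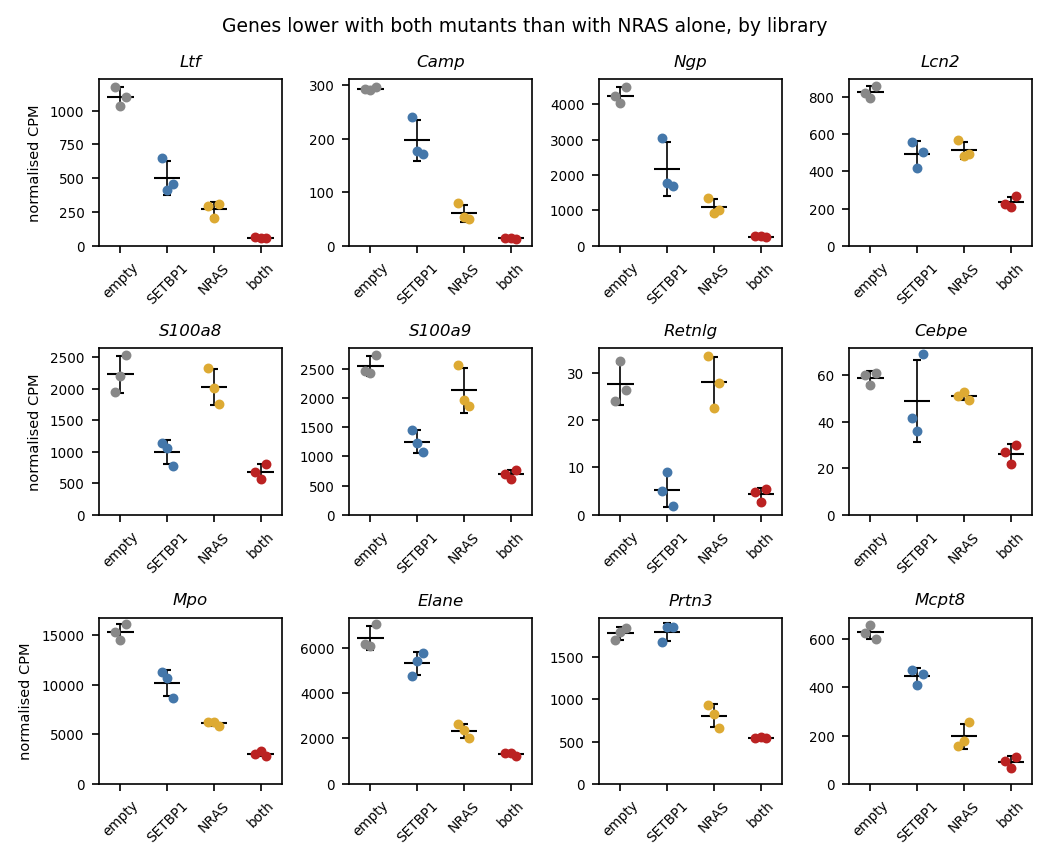
Normalised CPM (vertical axes, linear from 0) of 12 genes that fell, in the 3 libraries of each of the 4 groups; points are libraries, horizontal lines the mean and error bars the SD. In each panel the 3 libraries with both mutants lie below the 3 with NRAS. The mean with NRAS lies below the mean with empty vectors in every panel other than Retnlg, by less for S100a8, S100a9 and Cebpe.

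Genes of the earlier, primary granules fell too, by less. Of 13 tested 8 fell and 0 rose, beside 1.38% of all genes tested that fell. Their median log2 change was -0.548 against -1.16 for the late genes. All 13 had a negative log2 change (the median of all genes was 0.000173). Their summed level went from between 13380 and 14910 normalised CPM with NRAS to between 8743 and 8985 with both. Mpo, myeloperoxidase, was at 6271, 6257 and 5837 normalised CPM with NRAS and 3028, 3286 and 2799 with both (log2 change -1.01, SE 0.10, adjusted p 8.63e-05). Elane, neutrophil elastase, went from 2622, 2355 and 2010.2 to 1333, 1354 and 1243 (log2 change -0.83, SE 0.10, adjusted p 0.000986), and its neighbour Prtn3, proteinase 3, from 934, 832 and 661 to 541, 557 and 540.2 (log2 change -0.57, SE 0.10, adjusted p 0.00959). No library with both reached the level of a library with NRAS in these 3 genes. Prss57, another serine protease of these granules, changed by -1.57 (SE 0.14) and Nkg7, a granule membrane protein, by -1.15 (SE 0.09, adjusted p 3.19e-05); Nkg7 stood at 108, 106 and 108 with NRAS and 50.9, 45.6 and 48.8 with both. Smaller changes were those of Ms4a3, a membrane protein of granulocyte and monocyte progenitors (-0.58), the protease inhibitor Serpinb1a (-0.55) and Igfbp4, which binds insulin-like growth factors (-0.45). The call of Prtn3 was lost without NRAS replicate 2 or without SETBP1+NRAS replicate 1 or 3 (adjusted p up to 0.0593), and that of Igfbp4 without any 1 of the 6 libraries other than NRAS replicate 1 (up to 0.0773).

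Lists of other granulocytes and of megakaryocytes held fewer calls, and each of these was a fall. Among mast cell and basophil genes, 5 of 18 tested fell and 0 rose (median log2 change -0.953), beside 1.38% of all genes tested that fell. The 5 were the basophil proteases Mcpt8 and Prss34, the receptor chain Fcer1a, which binds IgE, the lipoxygenase Alox5 and the ribonuclease Rnase12. Mcpt8 stood at 158, 178 and 257 normalised CPM with NRAS and 95.4, 64.8 and 110.1 with both (log2 change -1.13, SE 0.18, adjusted p 0.00553), and Prss34 at 185, 216 and 304 and 107, 59.4 and 117 (log2 change -1.32, SE 0.24, adjusted p 0.00964). In both genes NRAS replicate 3 was the highest of the 6 libraries compared and SETBP1+NRAS replicate 2 the lowest. The groups without NRAS were higher. Mcpt8 had means of 630 normalised CPM with empty vectors and 446 with SETBP1 alone, and Prss34 of 1758 and 1255. Fcer1a changed by -1.64, Alox5 by -0.70 and Rnase12 by -2.14 on the log2 scale, and Cpa3, the carboxypeptidase of mast cells, by -1.28 without passing the threshold (adjusted p 0.0580). Of 6 eosinophil genes tested, Siglecf, a sialic acid-binding receptor, fell from 9.65, 8.93 and 8.87 to 3.36, 5.38 and 4.44 normalised CPM (log2 change -1.05, adjusted p 0.0104). The granule protein gene Prg2 was at 75.2, 96.2 and 139 and 65.3, 35.2 and 16.7, with no overlap and no call (adjusted p 0.603). Of 13 megakaryocyte genes, Itga2b, the integrin alpha chain of platelets and early progenitors, fell from 52.3, 48.6 and 64.8 to 22.0, 29.9 and 23.9 (log2 change -1.13, SE 0.16, adjusted p 0.00235). The chemokine gene Pf4, on the same list, was higher with both, at 103, 65.6 and 53.6 and 167, 139 and 178, and was not called (log2 change 1.12, adjusted p 0.112). Of 4 erythroid genes tested, Car2, a carbonic anhydrase, rose by 0.67 (adjusted p 0.0135), while the median log2 change of the 4 was -0.531. Epor, the erythropoietin receptor, and Klf1, an erythroid transcription factor, were lower in each library with both, with log2 changes of -1.73 and -2.30, and were not called (adjusted p 0.0804 and 0.213). In the fit to the 6 libraries both were called (adjusted p 0.0169 and 0.00231). Aqp1, the other erythroid gene tested, was higher in each library with both and was not called (log2 change 0.783). The summed level of the 4 was 50.74 to 72.65 normalised CPM with NRAS and 89.09 to 100.3 with both. Calls were lost without 1 library for Prss34 (NRAS replicate 3; adjusted p 0.0553), Siglecf (SETBP1+NRAS replicate 1; 0.0596), Alox5 (NRAS replicate 3 and SETBP1+NRAS replicates 1 and 2; up to 0.0603) and Car2 (SETBP1+NRAS replicates 2 and 3; up to 0.0783), and the call of Fcer1a was lost with limma-voom (0.0611). Rnase12 lost its call without any 1 NRAS, SETBP1+NRAS or empty library, or without SETBP1 replicate 2 (up to 0.186).

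In the opposite direction, genes of macrophages rose. Among 30 tested genes of monocytes and macrophages, 8 rose (Gpnmb, Ccr2, Mrc1, C1qa, C1qb, C1qc, Adgre1 and Fcgr1) and 2 fell (F13a1 and Ly6c2). Of all genes tested, 0.528% rose and 1.38% fell. The median log2 change of the 30 was 0.482. The summed level of the list was 29570 to 32590 normalised CPM with NRAS and 35020 to 41620 with both; the part that a shift between granulocytic and monocytic cells has in the falls above was not tested. Without SETBP1 replicate 3 the numbers were 16 higher and 3 lower, beside 357 and 479 of all 11112 genes tested in that fit. Without SETBP1+NRAS replicate 1 they were 2 and 0, beside 22 and 71 of all 11154.

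Gpnmb, a membrane glycoprotein of lysosome-rich macrophages, stood at 264, 203 and 171 normalised CPM with NRAS and 637, 758 and 527 with both (log2 change 1.59, SE 0.27, adjusted p 0.00642). Mrc1, the mannose receptor, went from 64.6, 50.5 and 53.5 to 144, 125 and 101 (log2 change 1.13, SE 0.21, adjusted p 0.0137), and C1qa, a chain of complement C1q, from 22.7, 14.2 and 10.6 to 45.7, 45.4 and 28.8 (log2 change 1.34, SE 0.29, adjusted p 0.0311). The groups did not overlap in any of the 3. The other C1q chains moved alongside, C1qb by 1.24 and C1qc by 1.32, and the macrophage surface proteins Adgre1 and Fcgr1, which encode F4/80 and CD64, by 0.77 and 0.80. Ccr2, the receptor that brings monocytes out of the marrow, was at 306, 312 and 348 with NRAS and 463, 472 and 455 with both (log2 change 0.53, SE 0.09, adjusted p 0.00852). The 2 members that fell mark classical monocytes: Ly6c2 was at 2869, 3043 and 2683 with NRAS and 2186, 1998 and 2409 with both (log2 change -0.38, adjusted p 0.0411), and F13a1, a coagulation factor chain, changed by -0.65 (adjusted p 0.0397). Ly6c2 has a close copy, Ly6c1, so its reads may be shared and its value is uncertain. For C1qa the NRAS libraries lay under the mean of the empty libraries, and those with both lay near it: the empty libraries held 30.8, 37.6 and 34.7 and those with SETBP1 alone 95.1, 86.6 and 162. Of the 10 calls on this list, Gpnmb kept its own in every alternative, and Ccr2 lost it without NRAS replicate 2 (adjusted p 0.0536). The other 8 calls were each lost without SETBP1+NRAS replicate 1 and without other single libraries. The adjusted p rose to at most 0.0879 for Mrc1, 0.159 for C1qa, 0.177 for C1qb, 0.1915 for C1qc, 0.204 for Adgre1, 0.226 for Fcgr1, 0.186 for F13a1 and 0.1897 for Ly6c2. Apart from Mrc1, these were also lost without empty replicate 1 and without empty replicate 3, libraries outside the comparison.

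**Figure D3:**
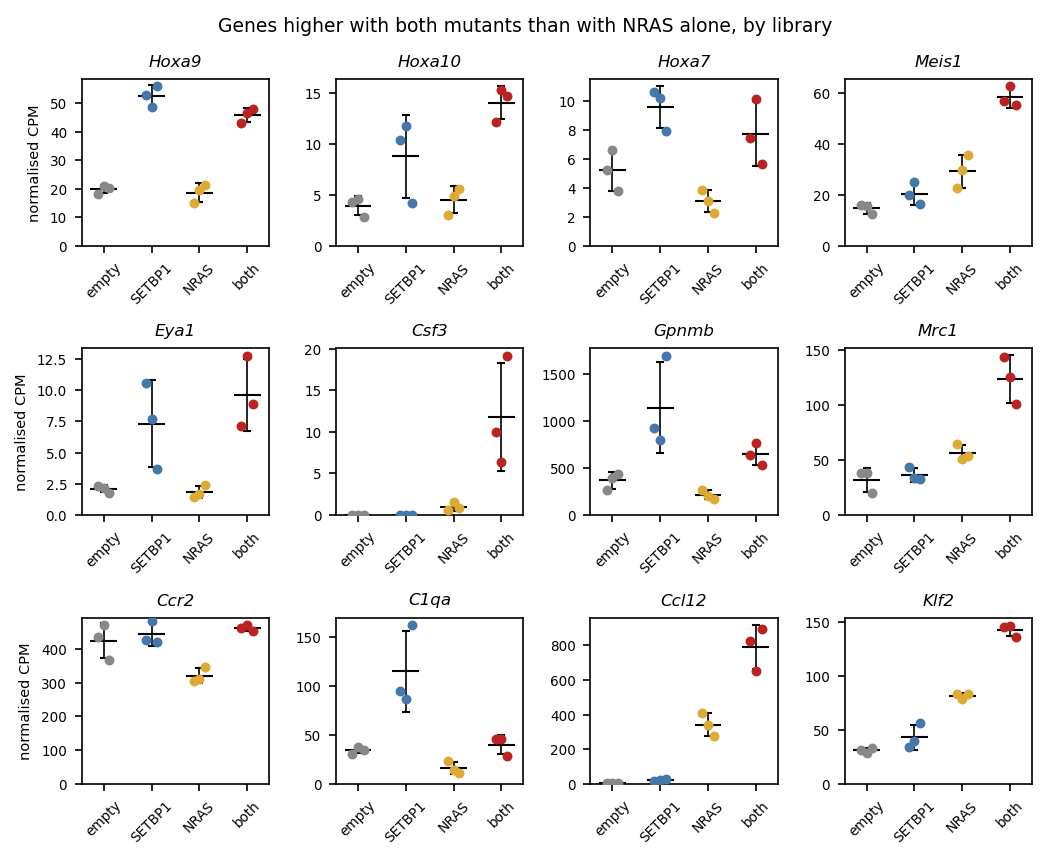
Normalised CPM (vertical axes, linear from 0) of 12 genes that rose, in the 3 libraries of each of the 4 groups; points are libraries, horizontal lines the mean and error bars the SD. The 3 libraries with both mutants lie above the 3 with NRAS in every panel, while SETBP1 alone reaches a level like that of both for Hoxa9 but stays far below it for Csf3 and Ccl12.

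Genes of other macrophage functions were examined from lists of their own. Of 28 lysosome genes tested 2 rose, among them the protease Lgmn by 0.89 (adjusted p 0.00579), beside 0.528% of all genes tested that rose. A positive log2 change was found in 23 of the 28 (the median of all genes was 0.000173). In the fit to the 6 libraries the list had 11 called higher and 1 lower, beside 3.73% and 4.63% of all genes in that fit. The scavenger receptor and fatty acid transporter Cd36 was at 77.6, 58.2 and 76.8 normalised CPM with NRAS and 159, 159 and 156 with both, a rise of 1.16 (SE 0.25, adjusted p 0.0289), the only call among 17 genes of lipid uptake and efflux. The collagenase Mmp13 rose by 0.98 (edgeR adjusted p 0.0439), 1 of 15 protease genes. Tlr13, a sensor of bacterial ribosomal RNA, rose by 0.53 (edgeR adjusted p 0.0309), 1 of 24 pattern recognition receptors. In the fit to the 6 libraries 6 protease genes were called higher and 0 lower. The numbers were 6 and 3 for pattern recognition receptors and 4 and 2 for lipid uptake and efflux. Among 34 interferon-stimulated genes Oas3 fell by 0.53 (adjusted p 0.0322), and among 16 genes of antigen presentation 0 were called. Calls were lost without any 1 of the 6 libraries for Cd36 and Tlr13 (adjusted p up to 0.155 and 0.147), without any 1 of them other than SETBP1+NRAS replicate 2 for Mmp13 (up to 0.231), and without NRAS replicate 2 or 3, SETBP1+NRAS replicate 1 or 2 or empty replicate 2 for Oas3 (up to 0.166). Tlr13 was also lost without empty replicate 1 or 2 and Mmp13 without empty replicate 3, and with DESeq2 as well.

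Apart from Setbp1, the largest rise among named genes was in a secreted factor. Csf3 encodes G-CSF, the cytokine that drives production of neutrophils. It stood at 0.529, 1.49 and 0.761 normalised CPM with NRAS, near the limit of detection, and at 9.93, 6.4 and 19.1 with both, with SETBP1+NRAS replicate 3 the highest (log2 change 3.66, SE 0.54, adjusted p 0.00871). All 6 libraries without NRAS were at 0. Its receptor gene Csf3r was lower in each library with both, at 63.0, 66.2 and 61.7 and 50.2, 49.7 and 51.4, and was not called (log2 change -0.34, adjusted p 0.205). The other 14 colony-stimulating and growth factor genes tested were not called. Saa3, an acute-phase apolipoprotein, went from 5.68, 7.04 and 5.83 to 22.2, 14.3 and 27.7 (log2 change 1.79, SE 0.42, adjusted p 0.0472), the only call among 22 genes of the NF-kB system. The interleukin-1 family was split. Il1a, a cytokine that cells release when they are damaged, went from 4.23, 5.28 and 4.06 to 15.2, 7.55 and 18.03 (log2 change 1.59, SE 0.34, adjusted p 0.0280), while Il1f9, the gene of interleukin-36 gamma, fell from 15.6, 14.2 and 14.8 to 8.25, 5.38 and 5.38 (log2 change -1.23, adjusted p 0.00791). In Csf3, Saa3 and Il1a, SETBP1+NRAS replicate 3 was the highest and replicate 2 the lowest of the libraries with both, and every one of them was above every NRAS library. Csf3 lost its call without NRAS replicate 3 (adjusted p 0.0633) and Il1f9 without SETBP1+NRAS replicate 2 (0.0521). Il1a lost it without any 1 of the 6 libraries other than SETBP1+NRAS replicate 2 (up to 0.137). Saa3 lost it without any 1 of the 6 or any 1 empty library, and with limma-voom (0.386).

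Of 24 chemokine and receptor genes, 3 rose and 2 fell, beside 0.528% and 1.38% of all genes tested. Ccl12, a ligand of Ccr2, was at 408, 340.3 and 278 normalised CPM with NRAS and 823, 649 and 896 with both (log2 change 1.21, SE 0.17, adjusted p 0.00224); with empty vectors it stood at 6.20, 6.48 and 4.18 and with SETBP1 alone at 15.8, 19.99 and 26.3. Ccl9, a chemokine of macrophages, went from 954, 973 and 988 to 1299, 1150.3 and 1357 (log2 change 0.39, SE 0.08, adjusted p 0.0222). Ligand and receptor of the Ccl12 and Ccr2 pair were thus both higher with both mutants, whereas the receptors that fell were Cxcr2, given above, and Cxcr4, which holds cells in the marrow and changed by -0.73 (adjusted p 0.0243). The call of Ccl9 was lost without any 1 of the 6 libraries other than SETBP1+NRAS replicate 2 (adjusted p up to 0.121), and that of Cxcr4 without any 1 of them other than NRAS replicate 2 (up to 0.1225).

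MAPK output genes, transcripts that follow ERK activity, are the list nearest to the question of the series title. Of 15 tested 0 were called (1.91% of all genes tested were), and 1283 of all genes had an unadjusted p under 0.05. At that share a list of 15 would hold few calls or none, and ERK activity itself was not measured. The count therefore does not answer the question. The median log2 change of the 15 genes was 0.251, with 12 of 15 above 0. Dusp6, the ERK phosphatase whose transcript tracks ERK activity, was at 380.3, 394 and 399 normalised CPM with NRAS and 404, 376 and 418 with both, overlapping (log2 change 0.03, SE 0.08, adjusted p 0.961). Of the 15 genes, 4 were higher in each library with both than in each with NRAS, as were 12.3% of all genes tested. Ccnd1, cyclin D1, stood at 95.0, 104 and 104 and 124, 119.9 and 118 (log2 change 0.25, SE 0.16, adjusted p 0.652), and Spred1, an inhibitor of RAS signalling, at 83.9, 87.1 and 104 and 114, 117 and 107 (log2 change 0.30, adjusted p 0.563). Etv1, an ETS transcription factor, went from 3.04, 2.30 and 3.17 to 5.87, 7.81 and 5.65 (log2 change 1.18, adjusted p 0.349) and Dusp4, a nuclear phosphatase, from 6.08, 4.33 and 5.96 to 11.7, 8.70 and 7.94 (log2 change 0.79, adjusted p 0.532). These 4 were past the threshold when only the 6 libraries were fitted (3.73% of all genes were called higher in that fit), with adjusted p of 0.0325, 0.0396, 0.00908 and 0.0409, a number that fell to 0 when NRAS replicate 2 was left out of that fit. In the fit to all groups without SETBP1 replicate 3 it was 0 as well. Dusp5, a nuclear ERK phosphatase, was lower in each library with both and not called (log2 change -0.27, adjusted p 0.426). The other feedback genes overlapped: Etv5 had a log2 change of 0.20, Etv4 0.27, Spry1 0.17, Spry2 0.15, Spry4 0.27, Spred2 -0.11, Spred3 1.04, Epha2 0.38 and Phlda1 -0.19. DESeq2 and limma-voom gave 0 calls on this list. Outside the list, the ERK phosphatase gene Dusp7, picked after its value was seen, was called higher (log2 change 0.46, edgeR adjusted p 0.0344). Its call was lost without several single libraries.

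Upstream of the MAPK output genes, 0 of 34 genes of the RAS to ERK core were called, beside 1.91% of all genes tested (median log2 change 0.00481). Of 22 immediate-early genes, which respond within minutes to signalling, 1 rose and 1 fell, beside 0.528% and 1.38% of all genes tested. In the fit to the 6 libraries 6 were called higher and 2 lower, beside 3.73% and 4.63% of all genes in that fit. In the main fit Atf3, a stress-induced factor, rose by 0.75 (edgeR adjusted p 0.0475). Btg2, which restrains division, fell by 0.62 (edgeR adjusted p 0.0433). Both were lost without any 1 of the 6 libraries, among other alternatives (adjusted p up to 0.237 and 0.223). Among the partners through which SETBP1 is known to act, 0 of 23 genes of SET and the PP2A subunits were called. Of the MLL and SETBP1 partner complexes 0 of 13 genes were. At the share of 1.91% of all genes tested, lists of these sizes would hold few calls or none. Set stood at 987, 925 and 1036 with NRAS and 1019, 1006 and 1009 with both.

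Genes of growth and metabolism gave few calls. None of 31 proliferation genes, 72 cytosolic ribosomal protein genes, 27 ribosome biogenesis genes, 75 respiratory chain subunits, 22 JAK-STAT feedback genes, 22 amino acid supply genes or 15 Bcl2 family genes was called, beside 1.91% of all genes tested. Their median log2 changes lay between -0.00662 and 0.178. A positive log2 change was found in 13 of 15 Bcl2 family and 22 of 27 ribosome biogenesis genes. In the fit to the 6 libraries these 2 lists each had 3 called higher and 0 lower, beside 3.73% and 4.63% of all genes. That fit called 0 higher and 2 lower among proliferation genes, 1 and 2 among amino acid supply genes and 0 and 1 among JAK-STAT feedback genes. Rrm2, a subunit of ribonucleotide reductase made in S phase, was at 704, 730.3 and 697 normalised CPM with NRAS and 686, 683 and 759 with both (log2 change 0.00, SE 0.07). On other lists single members were called. Cdkn2c, an inhibitor of the cyclin D kinases, rose by 0.61 (adjusted p 0.0309), the only call among 20 genes of G1 control, and Mycn, a MYC family factor, fell by 1.71 (adjusted p 0.0254), the only one among 12 of the Myc network. The glucose transporter Slc2a3 fell by 1.40 (edgeR adjusted p 0.0170), the cholesterol synthesis enzyme Fdps by 0.51 (0.0266) and the glutathione reductase Gsr by 0.31 (0.0243). Each was the only call of its list, of 25, 28 and 16 genes tested. Of the 28 cholesterol and fatty acid synthesis genes 23 had a negative log2 change. Their summed level was 1992 to 2130 normalised CPM with NRAS and 1787 to 1797 with both. In the fit to the 6 libraries 8 of them were called lower and 0 higher, beside 4.63% and 3.73% of all genes. Of 16 stem and progenitor receptors, Il7r, a cytokine receptor of lymphoid progenitors, rose by 1.15 (adjusted p 0.0315) and Adgrg1, an adhesion receptor of stem cells, fell by 0.84 (0.00332). Tcf4, a factor of plasmacytoid dendritic cells, rose by 0.62 (adjusted p 0.00235), 1 of 7 dendritic cell genes tested. Of the genes named here, Adgrg1 and Tcf4 kept their calls in every alternative. The others lost them without single libraries: Il7r, Cdkn2c and Gsr without any 1 of the 6 (adjusted p up to 0.159, 0.1585 and 0.117), Fdps without any 1 of the 6 other than NRAS replicate 3 (up to 0.124), Slc2a3 without any 1 other than NRAS replicate 1 (up to 0.110) and Mycn without NRAS replicate 2 or 3 or SETBP1+NRAS replicate 1 or 2 (up to 0.140). Il7r was also lost without any 1 empty library, and Cdkn2c and Fdps without empty replicate 1.

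**Figure D4:**
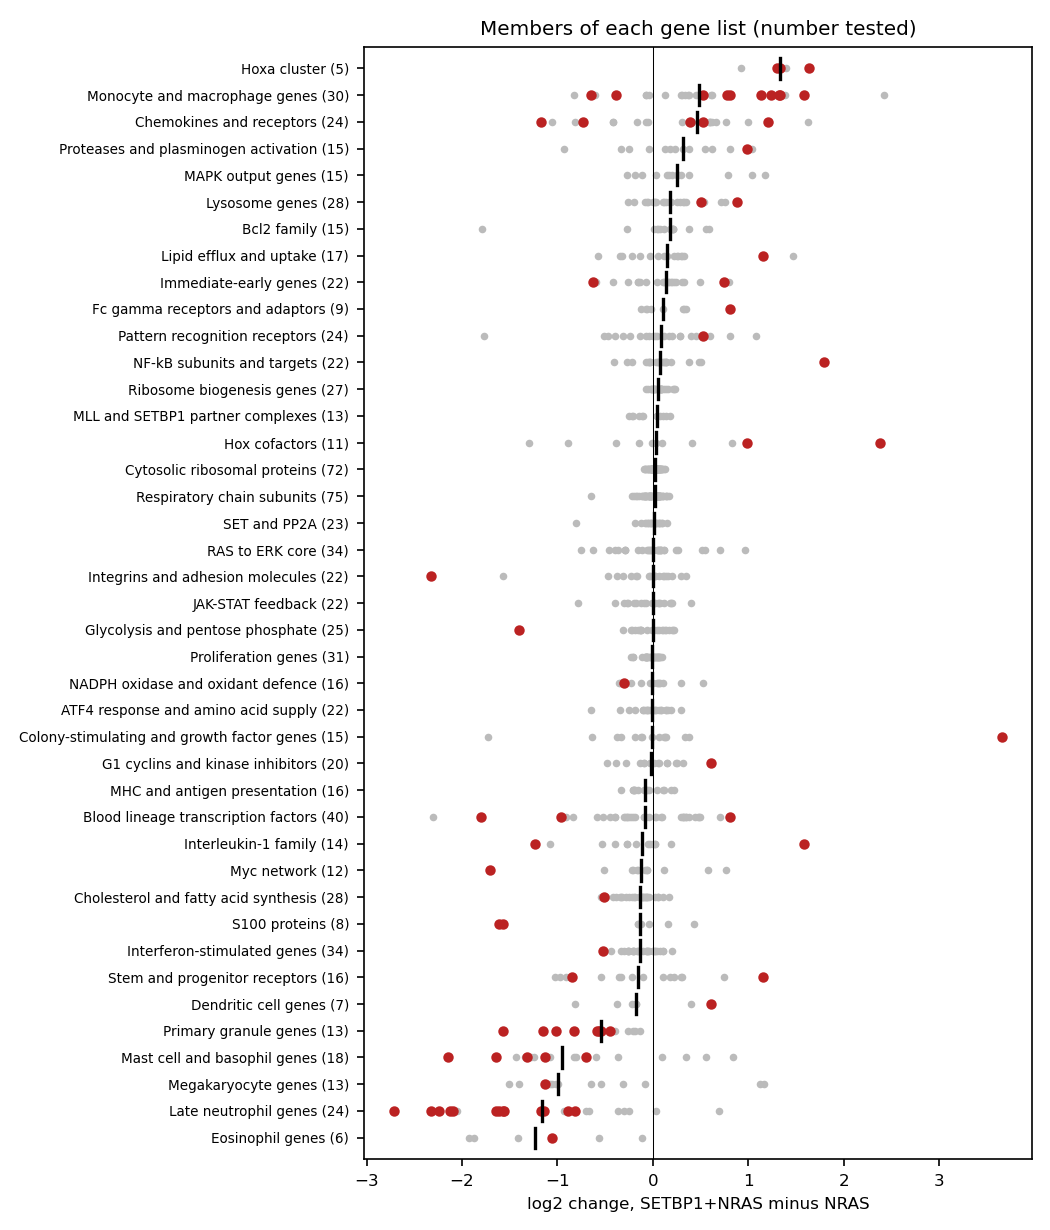
Log2 change between both mutants and NRAS (horizontal axis) of the tested members of each gene list with at least 5 of them, one row per list with the number tested in brackets and one point per gene. Red points are past the threshold, grey points are not and black bars are medians; the Hoxa cluster has the highest median, at 1.33, and eosinophil genes, at -1.23, and late neutrophil genes, at -1.16, the lowest.

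Outside the lists, the genes with the largest changes and at least 50 counts in the higher group, or with the smallest p, were of mixed kinds. Adgrl4, an adhesion receptor best known from endothelium, went from 6.74, 7.85 and 11.8 to 25.0, 26.0 and 27.3 normalised CPM (log2 change 1.57, SE 0.24, adjusted p 0.00355). St8sia4, an enzyme that builds polysialic acid, went from 31.7, 29.8 and 37.9 to 59.9, 67.1 and 63.0 (log2 change 0.93, adjusted p 0.00163), and Wfdc17, a small protein of activated macrophages, from 7.80, 5.82 and 3.93 to 18.9, 12.2 and 27.7 (log2 change 1.74, adjusted p 0.0357). Among the falls, Lipg, a secreted lipase, stood at 33.8, 32.9 and 47.5 with NRAS and 6.71, 6.53 and 7.0 with both (log2 change -2.50, SE 0.26, adjusted p 0.000196). Pglyrp1, a peptidoglycan recognition protein of neutrophil granules that was not on the late neutrophil list, went from 60.8, 45.1 and 45.5 to 15.4, 15.5 and 14.8 (log2 change -1.73, SE 0.14, adjusted p 3.19e-05). The tetraspanin Tspan2 and the septin Sept5 changed by -1.83 and -1.80 (adjusted p 0.0246 and 0.00126). In each of these 7 genes the groups did not overlap. Wfdc17 and Tspan2 lost their calls without single libraries and with limma-voom (adjusted p up to 0.187, without NRAS replicate 3, and 0.151, with limma-voom); for Tspan2 these were each of the 6 compared, and for Wfdc17 each of them other than SETBP1+NRAS replicate 2, and empty replicate 1.

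Whether these changes depended on NRAS was examined by setting them beside the change that SETBP1 made without it, SETBP1 alone against empty vectors, which shares no library with the comparison above. Of the 58 genes that rose, 52 had a positive log2 change there and 40 were called in the same direction; of the 152 that fell, 144 and 79 did, beside 14.9% of all genes tested called there in either direction (8.31% higher and 6.55% lower). The log2 changes of the 2 comparisons had the same sign for 64.3% of all genes tested. Hoxa9 changed by 1.41 without NRAS and 1.30 with it, Retnlg by -2.40 and -2.71 and Gpnmb by 1.64 and 1.59. For other genes the values lay further apart: Mrc1 changed by 0.19 and 1.13, Gata1 by -0.50 and -1.80, and Saa3 by 3.64 and 1.79. The test of the difference itself, the interaction, was past the threshold for none of these 6 (adjusted p 0.803, 0.812, 0.962, 0.273, 0.172 and 0.253). For Csf3, which had 0 counts in all libraries without NRAS, no difference could be measured.

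The interaction was past the threshold for 5 of the 10993 genes (0.0455%), Slc7a11, Tmem176b, Camp, Apobec3 and Oaf, beside 1420 at an unadjusted p under 0.05. Slc7a11, the cystine importer, was at 11.2, 10.7 and 10.9 normalised CPM with empty vectors and 23.1, 24.8 and 22.2 with SETBP1, and at 131, 121 and 152 with NRAS and 103, 109.7 and 106 with both. SETBP1 thus went with a higher level without NRAS and with a lower one, not called, with it. Tmem176b, a membrane protein of myeloid cells, took the same course, at 59.8, 65.4 and 61.3 and 103, 92.9 and 106 without NRAS and 23.3, 27.9 and 22.3 and 11.3, 16.6 and 14.7 with it; its fall with both was called (adjusted p 0.0106). Oaf, a secreted protein, went the opposite way, at 16.5, 14.1 and 13.1 and 11.8, 10.6 and 11.1 without NRAS and 47.3, 46.9 and 52.4 and 81.7, 76.4 and 76.7 with it. Camp fell in both settings, from 294, 291 and 297 to 242, 178 and 172 without NRAS, and the log2 fall was larger with it. Apobec3, a cytidine deaminase that restricts retroviruses, was at 169, 159 and 168 and 225, 221 and 239 without NRAS and 172, 167 and 189 and 143, 141 and 153 with it. Of the 5 interaction calls, that of Slc7a11 held in every alternative. Oaf lost its own without any 1 NRAS, SETBP1+NRAS or empty library or without SETBP1 replicate 2 (adjusted p up to 0.184), and Camp without NRAS replicate 2 or any 1 SETBP1+NRAS or empty library (up to 0.194). Apobec3 lost it without SETBP1+NRAS replicate 1 or 2 or any 1 empty library (up to 0.129), and Tmem176b without empty replicate 1 or 3 (up to 0.0731). Tmem176b lost its call for both against NRAS without NRAS replicate 2 or without SETBP1+NRAS replicate 1 (adjusted p up to 0.0642).

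**Figure D5:**
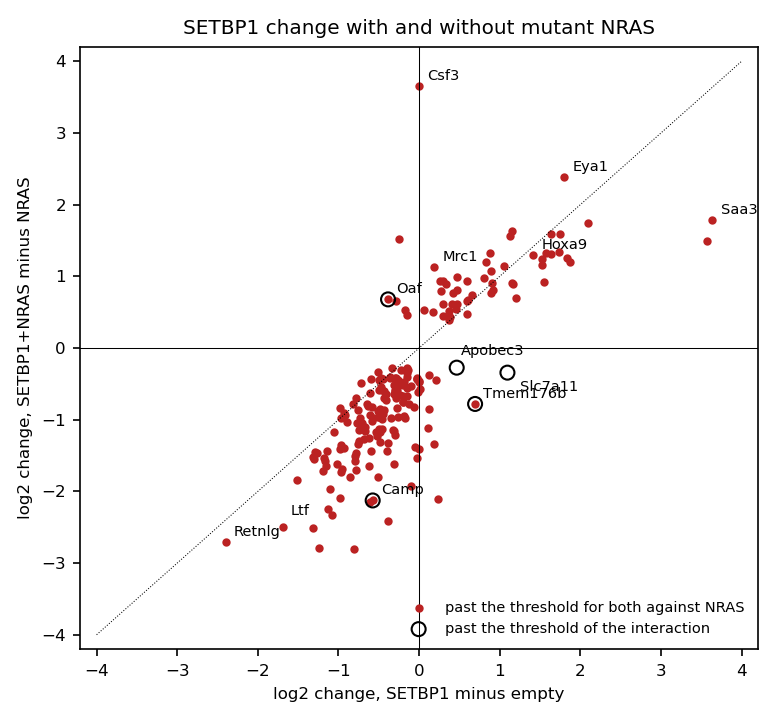
Log2 change of both mutants against NRAS (vertical axis) against that of SETBP1 against empty vectors (horizontal axis) for the genes past the threshold of the former other than Setbp1 (red) and the 5 past the threshold of the interaction (circled); the dotted line marks equal changes. Most red points lie in the lower left and upper right, where both changes have the same sign; Csf3 lies on the vertical axis because it had 0 counts in the libraries without NRAS.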

How the data were processed

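The authors deposited 1 table of raw, whole-number read counts for 19910 gene symbols in 12 libraries, 3 per group. Per the labels' protocols, total RNA came from a column kit meant for few cells, and a SMART-Seq protocol for low input gave the libraries. The submitters' processing notes name STAR, DESeq2 and mm10 without saying how they were used; the counting tool and its strand and multimapping rules are not given in the sources used here. Close copies, overlapping genes and antisense partners may therefore have shared or lost reads, and an introduced coding sequence of another species could lose part of its reads. Totals were 7085894 to 8864919 counts per library, and 5080 symbols had no count in any.

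From these deposited counts, genes were kept by filterByExpr (minimum count 10, minimum total 15), which left 10993 genes with 99.9% of the counts. Libraries were scaled by TMM, and edgeR 4.0.16 (R 4.3.3) gave quasi-likelihood F tests from one fit to all 12 libraries as 4 group means. The contrasts were SETBP1+NRAS minus NRAS, SETBP1 minus empty, and their difference, the interaction. Two-sided p-values were adjusted by Benjamini-Hochberg over all genes tested, with a threshold of 0.05. The standard error (SE) was the size of the log2 change divided by the square root of F. The fit of both against NRAS was tested on simulated data with edgeR, limma-voom and DESeq2. The other contrasts and steps were not.

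The members and the 46 gene lists were chosen with earlier results of these data known. Named genes were the 8 with the largest change in each direction (groups not overlapping, mean count of at least 50 in the higher group), the 5 with the smallest p in each direction, and for each list up to 4 called members or, with none, the member with the highest mean. All called members were named for the Hoxa, cofactor, late neutrophil and primary granule lists, all members of the MAPK output list, and Setbp1, Nras and the interaction genes. Other genes were chosen after their values were seen: Hoxa5, Pbx3, Cebpa, Gfi1, Spi1, Myb, Runx1, Csf3r, Cpa3, Prg2, Pf4, Epor, Klf1, Aqp1, Rnase12, C1qb, C1qc, Adgre1, F13a1, Ly6c2, Cxcr4 and those of the closing observations. Some genes that the rule names are not reported here. Promoters of 8836 tested genes were read from RefSeq's table for GRCm38.p6, the assembly of mm10, and 4 words were searched.

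The alternatives were DESeq2 1.42.0, limma-voom (limma 3.58.1), scaling by library size, upper quartile or DESeq2-style size factors, 3 other filters, the 6 libraries alone, a robust fit, the replicate number as a block, an adjusted p under 0.01 and each library left out in turn. Leaving out libraries in the fit to the 6 alone was added after seeing the data.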

Additional observations from a re-analysis of the deposited data

Results flagged for a closer look

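The interaction test found 5 genes whose log2 change with SETBP1 depended on whether the cells also carried mutant NRAS. The difference, the change with NRAS minus the change without it, was -0.74 for Apobec3 (SE 0.10, edgeR adjusted p 0.0178), -1.44 for Slc7a11 (SE 0.15, adjusted p 0.00169), -1.48 for Tmem176b (SE 0.19, adjusted p 0.0114), -1.55 for Camp (SE 0.24, adjusted p 0.0424) and 1.06 for Oaf (SE 0.16, adjusted p 0.0374). Slc7a11 changed by 1.10 without NRAS and -0.34 with it, Tmem176b by 0.69 and -0.78, Apobec3 by 0.47 and -0.27, Oaf by -0.38 and 0.68, and Camp by -0.58 and -2.13 on the log2 scale. Groups of 3 libraries were not examined for single outlying values.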

How the results depend on the processing

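The number of genes called for both against NRAS was 210, 58 higher and 152 lower. It was 379 with DESeq2 (131 and 248), 883 with only the 6 libraries compared (394 and 489, a share of 44.6% higher against 27.6%) and 86 at an adjusted p under 0.01 (21 and 65). Leaving out 1 library gave 93 to 836 in all, 19 to 371 higher and 71 to 479 lower, over the fits to all groups and to the 6 libraries. Limma-voom gave 184 (70 and 114). Scaling and filters gave 189 to 257 and a shift of the median of all genes of at most 0.03 in log2.

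Same-numbered libraries of the 2 groups did not deviate together (correlations of 0.021, -0.0339 and -0.0085), so the labels' numbers were not taken to pair them. With the replicate block the count was 164, and with the replicate block and only the 6 libraries it was 764 (342 higher and 422 lower).

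The interaction called 5 genes, 1 higher and 4 lower. It called 81 with DESeq2 (33 and 48), 3 with limma-voom (0 higher), 14 with no low-count filter (3 and 11) and 1 at an adjusted p under 0.01 (0 higher and 1 lower). Library size scaling gave 3 higher, and leaving out 1 library gave 1 to 110 in all, 0 to 52 higher and 1 to 58 lower. The cause of these movements was not tested.

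None of the 210 genes called for both against NRAS changed direction in an alternative. Besides the losses without a library given in the text, limma-voom ended the calls of Adgre1, Btg2, C1qa, C1qc, F13a1, Fcgr1, Ffar2, Hoxa7, Il1a, Rnase12 and Wfdc21, and the replicate block those of Atf3, C1qa, C1qb, C1qc, C3ar1, Ccl9, Cd36, F13a1, Fcgr1, Igf1, Ly6c2, Mmp13, Mt2, Rnase12 and Wfdc17. A mean count of at least 50 ended those of Atf3, Fcgr1, Igf1 and Saa3, and library size scaling those of Btg2, Dusp7 and Mt2. The interaction calls of Oaf and Camp were lost with limma-voom, that of Oaf with the replicate block, and that of Camp with library size or upper-quartile scaling. Depth limited genes such as Hoxa5, with under 20 counts in each library.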

Other observations

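Of the 210 genes called, 70 were on one of the lists, and the genes below were picked from the rest after their values were seen. Ch25h, which makes the oxysterol 25-hydroxycholesterol, stood at 12.8, 11.8 and 10.4 normalised CPM with NRAS and 37.1, 28.2 and 35.4 with both (log2 change 1.52, edgeR adjusted p 0.00639), with no overlap, while its libraries without NRAS were at 0, 0.381 and 0.405 with empty vectors and 0.361, 0.261 and 0 with SETBP1. The receptors of the complement fragments C5a and C3a, C5ar1 and C3ar1, rose by 0.62 (adjusted p 0.00626) and 0.47 (0.0258), beside the C1q chains. Slc11a1, the metal transporter of phagosomes, rose by 1.26 (adjusted p 0.00791), the scavenger receptor Stab1 by 0.76 (0.00813) and the growth factor Igf1 by 0.93 (0.0465). The metallothionein genes Mt1 and Mt2 rose, by 0.52 (adjusted p 0.0112) and 0.94 (0.0443). Dusp7, a cytosolic phosphatase of ERK that was not on the MAPK output list, went from 103, 116 and 117 to 155, 165 and 141 normalised CPM (log2 change 0.46, adjusted p 0.0344).

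Among the falls was Ceacam10, an adhesion molecule of neutrophils, at 5.95, 3.79 and 8.11 normalised CPM with NRAS and 1.54, 0.768 and 0.807 with both (log2 change -2.52, adjusted p 0.00364), Lrg1, a glycoprotein of specific granules (-1.69, adjusted p 0.00332), and Ffar2, a receptor of short-chain fatty acids (-1.22, 0.0170). Hemgn and Tfr2, genes of erythroid progenitors, changed by -1.97 (adjusted p 0.00390) and -1.62 (0.00699). Lta4h, which acts after Alox5 in leukotriene synthesis, changed by -0.58 (adjusted p 0.00163). Of the genes in these observations, C5ar1, Ceacam10, Hemgn, Tfr2 and Lta4h kept their calls in every alternative. Calls were lost without single libraries for Ch25h (NRAS replicate 3 or SETBP1+NRAS replicate 1; adjusted p up to 0.0558), Slc11a1 (NRAS replicate 2 or 3; up to 0.0553) and Stab1 (SETBP1+NRAS replicate 2; 0.0531), and with limma-voom for Lrg1 (0.0611). C3ar1, Igf1, Mt1, Mt2, Dusp7 and Ffar2 lost theirs without several single libraries (adjusted p up to 0.127, 0.241, 0.0704, 0.211, 0.168 and 0.0964), and Ffar2 also in the fit to the 6 libraries without NRAS replicate 3.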
